A study of Danio rerio with 12 samples.

Results

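The genes described here encode the lysosomal cathepsins, the vacuolar proton pump and a lysosomal membrane glycoprotein of zebrafish larvae exposed to silver. They were taken as all genes whose symbol on the array platform begins with cts and a cathepsin letter, with atp6v or atp6ap, or with lamp1 or lamp2. The rule found 36 genes, represented by 79 probes, among 14331 named genes tested. Of these, 16 were proteases, 19 were pump subunits and 1 was lamp2, and 13 genes had 1 probe. All 36 passed the filter on missing values. The annotation of the platform is old, and 5 further genes carry such a symbol only under current names (atp6ap1a, atp6ap1lb, atp6v0a2b, atp6v0e1 and lamp1a). They stand outside the rule and were added in an alternative. Gene names are current ones: ctsla, ctslb, ctss1, ctss2.1, ctss2.2 and atp6ap1b were called ctsl1a, ctsl1b, ctssa, ctssb.1, ctssb.2 and atp6ap1 on the platform.

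Lysosomes break down material that a cell takes up or discards. Cathepsins are their proteases, most of them cysteine proteases, with cathepsin D an aspartic and cathepsin A a serine enzyme. They are made as inactive precursors and work best in acid. The acid comes from the vacuolar proton pump, in which a peripheral sector named V1 splits ATP and turns a rotor in a membrane sector named V0 that carries protons into the lumen. The same pump also sits in the surface membrane of acid-secreting skin ionocytes of fish and of osteoclasts.

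RNA came from whole wild-type larvae of the AB strain, 21 days old. One group had lived for 15 days, from day 6 after fertilization, in water with silver nitrate (AgNO3, a soluble salt), another in water with silver nanoparticles (AgNPs), both at 0.01 mg/L. The control larvae were held without silver, in conditioned water to which methylene blue had been added. Each of 12 Agilent arrays compared an exposed with a control sample, 6 per silver form, with the exposed RNA in Cy5 on replicates 1 to 3 and in Cy3 on replicates 4 to 6. The codes of the samples were read as 6 control samples, each used once against AgNO3 and once against AgNPs, so both comparisons share their controls. The sources used here give neither particle size and coating nor the number of tanks and of larvae behind a sample. The p-values therefore measure only the spread between these samples.

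Values are log2 ratios of exposed over control larvae, so that -1 stands for a halved ratio. That the logarithm is to base 2 is an assumption. The direction is likely but not settled, and with the opposite order every sign turns. The arrays with exposed RNA in Cy3 were used as deposited, as if their ratios had already been turned. Over 25266 tested features, pairs of arrays of 1 dye orientation correlated at a mean r of 0.08 in AgNO3 and 0.09 in AgNPs. Pairs of opposite orientation correlated at -0.02 in both groups, with the lowest pair at -0.09. The interquartile range of an array was 0.216 to 0.342 for AgNO3, 0.293 and 0.233 on AgNPs replicates 1 and 2, and 0.0946 to 0.116 on AgNPs replicates 3 to 6. Ratios hold no levels, so the presence of a cell type could not be checked from them.

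The first question was whether either silver form shifted these genes against control larvae. In the moderated test of limma, adjusted over all features, 0 of 36 members passed the threshold of 0.05 in AgNO3, where 0.0119% of all features did. None of the 36 passed in AgNPs either, against 0.0237% of all features. The test used the same spread of a gene for both groups, though AgNPs replicates 3 to 6 spread less than any AgNO3 array. Standard errors (SE) and p-values can therefore be too small for AgNO3 and too large for AgNPs. At an unadjusted p under 0.05, 3 members were higher in AgNO3, against 3.54% of all features, and 3 were lower, against 4.71%. In AgNPs, 2 were higher, against 2.05% of all features, and 4 were lower, against 2.19%. In AgNO3 these genes were ctss2.1, ctsla and ctsk below control and ctsbb, atp6v1h and atp6v1d above it. In AgNPs they were ctss2.2, ctsba, ctsz and atp6v1ba below control and atp6v0b and atp6v0cb above it.

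**Figure D1:**
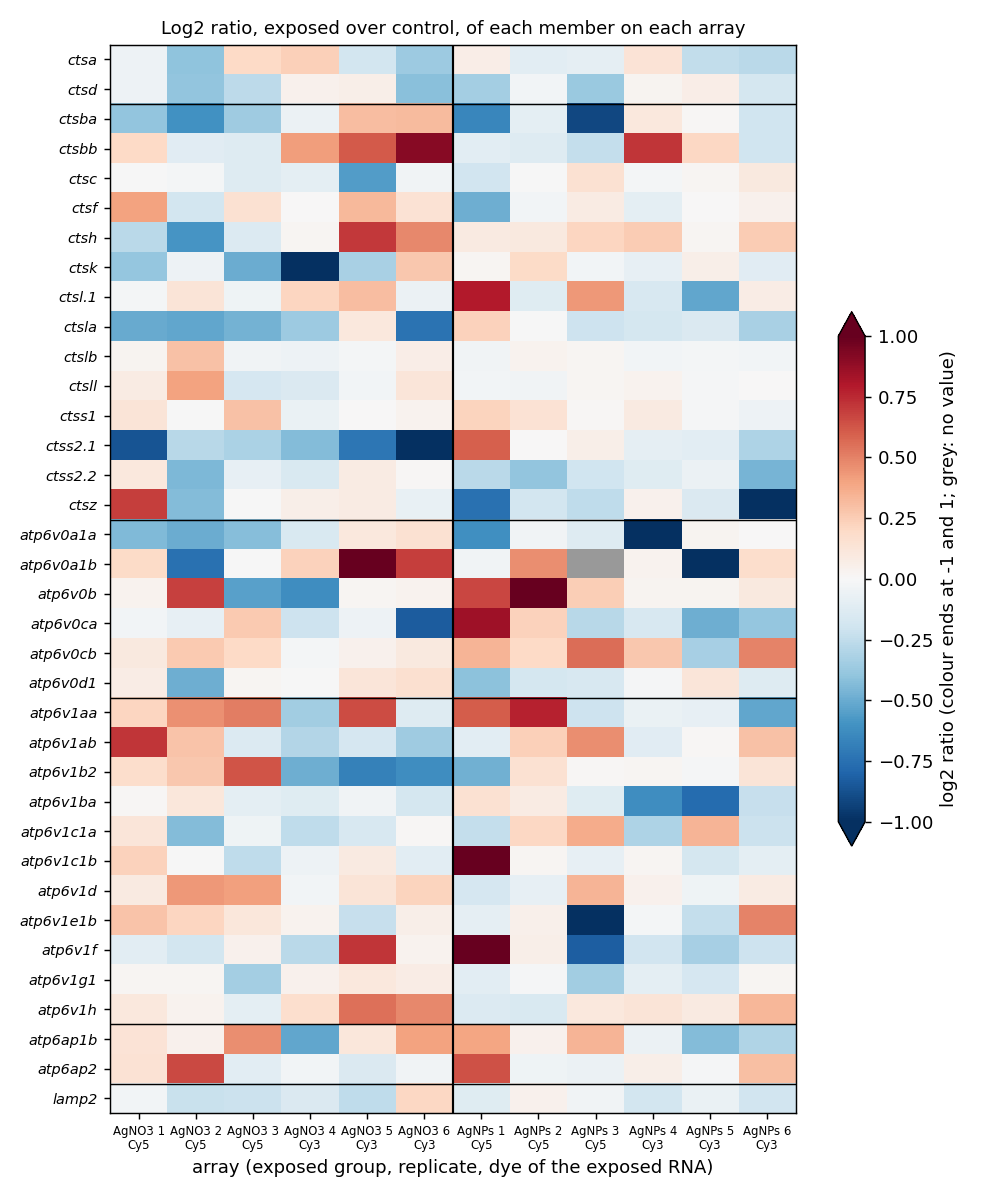
Log2 ratio of exposed over control for each of the 36 genes (lines, grouped by role) on each of 12 arrays (columns, named by silver form, replicate and dye of the exposed RNA), with blue below and red above control, colours ending at -1 and 1, and grey where the value is empty. The line of ctss2.1 is blue on 6 of 6 AgNO3 arrays, and most other lines hold both colours within a group.

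Among the cysteine cathepsins, ctss2.1 had the lowest ratio and the lowest p of all members in AgNO3. It encodes a cathepsin S, a protease which in mammals trims the invariant chain of MHC class II molecules in antigen-presenting cells. Its log2 ratio on AgNO3 replicates 1 to 6 was -0.86, -0.28, -0.32, -0.43, -0.73 and -1.37. On AgNPs replicates 1 to 6 it was 0.60, 0.00, 0.06, -0.09, -0.10 and -0.30. All 6 AgNO3 arrays lay below 0, and the AgNPs arrays lay on both sides of it. The groups overlapped slightly, since the lowest AgNPs array (-0.30) lay below the highest AgNO3 array (-0.28). The estimate in AgNO3 was -0.66 (SE 0.12, n = 6, 95% interval -0.94 to -0.39), a linear ratio of 0.632, with an adjusted p of 0.211. In AgNPs it was 0.03 (SE 0.12, n = 6, 95% interval -0.25 to 0.30).

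**Figure D2:**
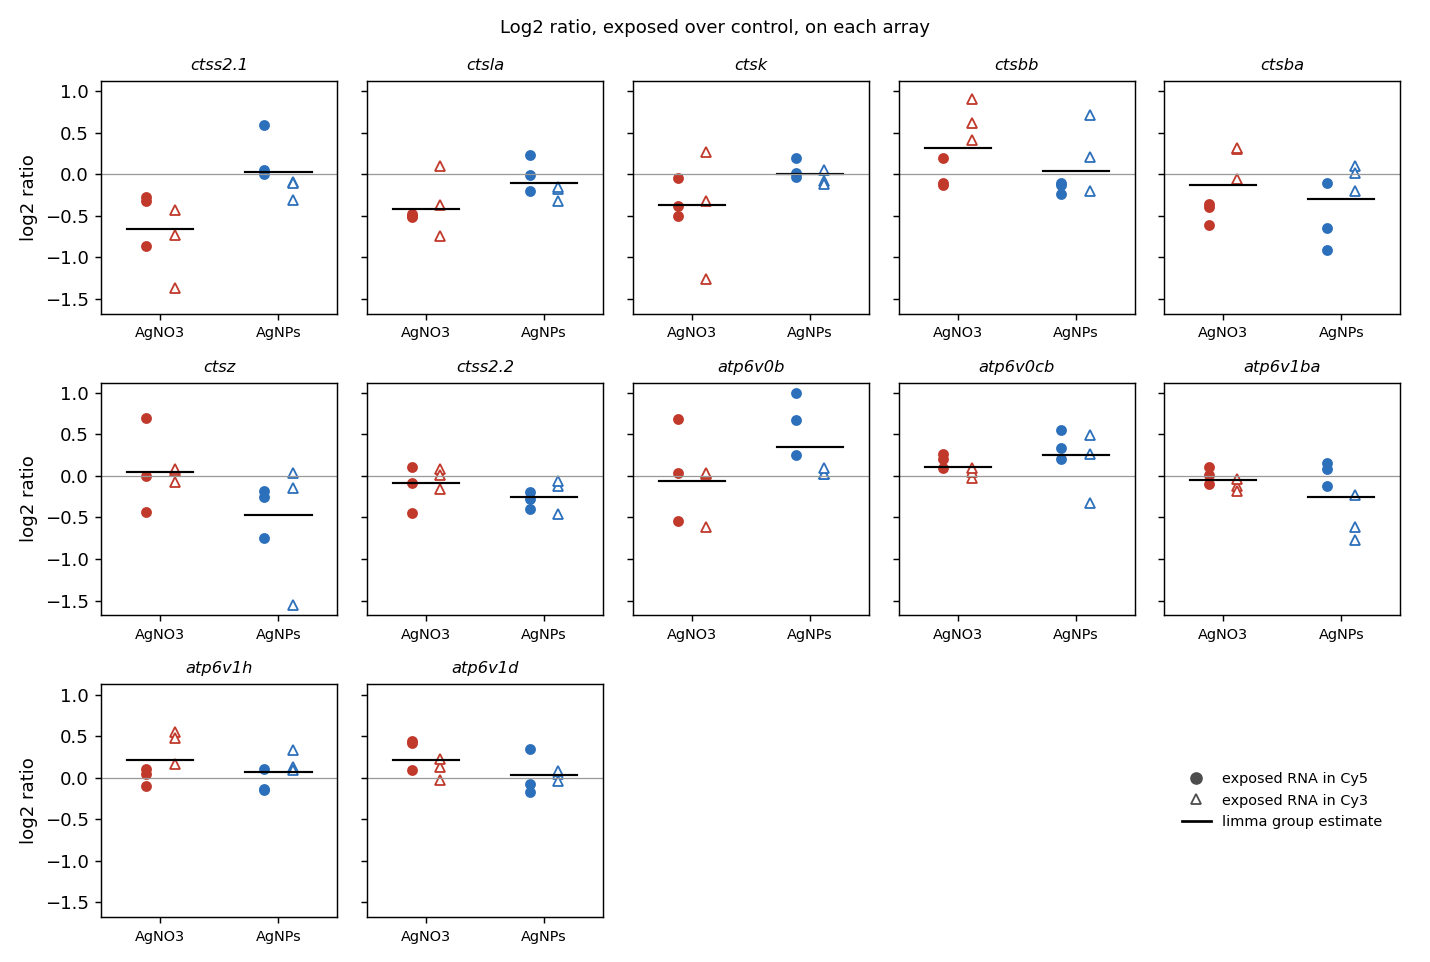
Log2 ratio of exposed over control on each array for the 12 genes with an unadjusted p under 0.05 in either silver form (filled circles, exposed RNA in Cy5; open triangles, exposed RNA in Cy3; black line, limma estimate of the group). For ctss2.1 the AgNO3 arrays lie between -1.37 and -0.28; for ctsbb and ctsba the AgNO3 arrays separate by dye.

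The 3 probes of ctss2.1 differed. The probe with values on all 12 arrays was below control on 6 of 6 AgNO3 arrays, with an estimate of -0.84 (SE 0.12, n = 6). Another, at -0.73 (SE 0.26), lacked AgNO3 replicate 6, and the third, at -0.03 (SE 0.15), lacked several arrays. The gene's value on AgNO3 replicate 6 thus came from 1 probe. Both probes with gaps shared exact values with probes of other genes on some arrays. The third probe and a ctsd probe both read -0.078456 on AgNPs replicate 3. The other gapped probe and a lamp1a probe both read -0.031338 on AgNO3 replicate 2. Whether such repeated values are measurements was not tested, so the third probe need not be a measured disagreement. When probes with any gap were left out, an alternative chosen after seeing the data, ctss2.1 passed the threshold in AgNO3 at -0.84 with an adjusted p of 0.0325. That value rested on the gap-free probe alone. Fitted among all single probes, the same probe at -0.84 did not pass (limma, adjusted p = 0.0914). Over all 28 alternatives its adjusted p in AgNO3 ran from 0.0325 to 0.881. With the ratios of the Cy3 arrays turned, its value became 0.18. Probe sequences were not used here, so a share of signal from the related ctss2.2 cannot be told apart.

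**Figure D3:**
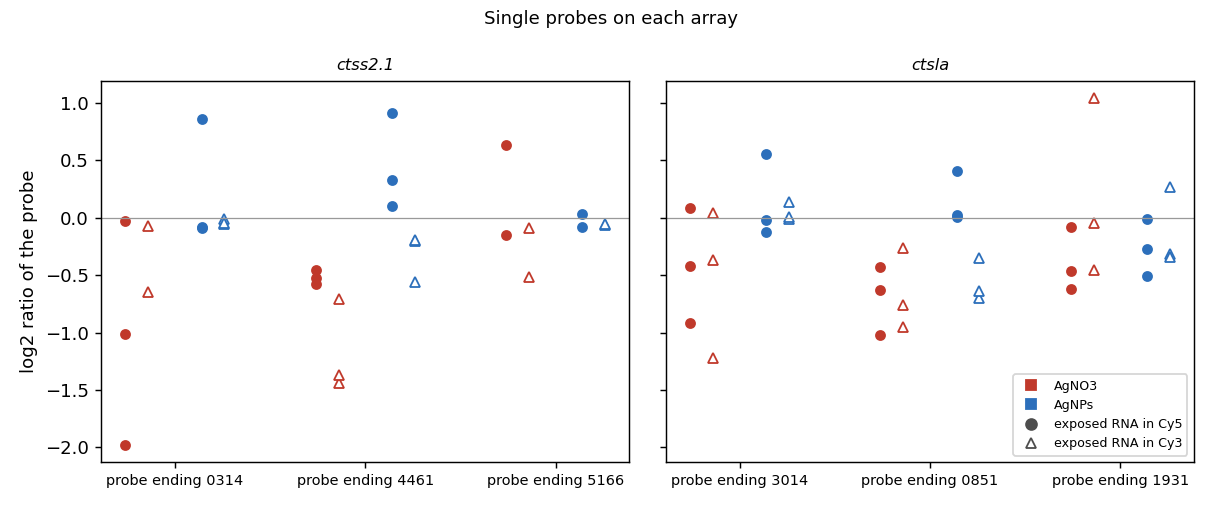
Log2 ratio of each probe of ctss2.1 and ctsla (3 probes each, named by their last digits) on each array, for AgNO3 in red and AgNPs in blue, with filled circles for exposed RNA in Cy5 and open triangles for Cy3. The middle probe of ctss2.1 is below 0 on 6 of 6 AgNO3 arrays and the right-hand probe lies on both sides of 0.

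The cathepsin L gene ctsla came next. Its ratio in AgNO3 ran from -0.74 over a median of -0.49 to 0.11, and 5 of 6 arrays were below control. In AgNPs it ran from -0.32 over a median of -0.16 to 0.23, also with 5 of 6 arrays below control, so the groups overlapped. The estimates were -0.42 (SE 0.10, n = 6, adjusted p = 0.337) in AgNO3 and -0.11 (SE 0.10, n = 6, adjusted p = 0.9999) in AgNPs. With the Cy3 arrays turned they were -0.08 and 0.11. All 3 probes of ctsla had a mean below 0 in AgNO3, at -0.68, -0.47 and -0.10. The other cathepsin L genes, ctsl.1, ctslb and ctsll, were at 0.09, 0.05 and 0.04 in AgNO3 and at 0.08, -0.01 and 0.00 in AgNPs. As deposited, none had an unadjusted p under 0.05. With the Cy3 arrays turned, ctsl.1 was at 0.29 in AgNPs, with a difference between the silver forms of -0.35 (limma, adjusted p = 0.798 and 0.847). Probes of ctslb, ctsll and lamp2 shared the value 0.00076215 on AgNPs replicate 6. Values near 0 for ctslb and ctsll are therefore not read as measured absence of change. On the same arrays ctsla lay below ctsl.1 in 6 of 6 AgNO3 and 4 of 6 AgNPs comparisons. Since ctsla was named for its low AgNO3 values, these counts add no separate evidence. With the Cy3 arrays turned, ctsla and ctsl.1 were at -0.08 and -0.07 in AgNO3.

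Cathepsin K, the collagen-degrading protease by which osteoclasts are known, had 1 probe. Its ratio in AgNO3 ran from -1.26 over a median of -0.35 to 0.27, with 5 of 6 arrays below control. In AgNPs it ran only from -0.12 to 0.19, around a median of 0.00. The AgNO3 estimate of ctsk was -0.37 (SE 0.15, n = 6, adjusted p = 0.557). The standard deviation of its arrays was 0.52 in AgNO3 and 0.11 in AgNPs, but the shared spread gave an SE of 0.15 in both. Leaving out AgNO3 replicate 4, its lowest array, moved the value to -0.19, and turning the Cy3 arrays gave 0.06. In the RefSeq annotation of assembly GRCz12tu, ctsk, ctss2.1 and ctss2.2 are neighbouring protein-coding genes in that order.

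The neighbour ctss2.2, also a cathepsin S gene and with 1 probe, was below control on 6 of 6 AgNPs arrays. Among all features, 2.6% were below control on every AgNPs array, and ctss2.2 was 1 of 36 members. Its ratio ran from -0.46 over a median of -0.23 to -0.06 in AgNPs, and from -0.45 over -0.03 to 0.11 in AgNO3. The estimates were -0.25 (SE 0.08, n = 6, adjusted p = 0.856) in AgNPs and -0.08 (SE 0.08, n = 6, adjusted p = 0.764) in AgNO3. With the Cy3 arrays turned, the AgNPs value of ctss2.2 was -0.04, so both its size and its count of arrays rest on the ratios having been turned before deposit. ctss2.1 lay below ctss2.2 on 5 of 6 AgNO3 arrays and above it on 5 of 6 AgNPs arrays. Both genes were named for low values on these arrays, so these counts add no separate evidence. The third cathepsin S gene, ctss1, was at 0.06 in AgNO3 and 0.07 in AgNPs.

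As deposited, the estimates of the cathepsin B genes differed in sign in each silver form, but with the Cy3 arrays turned all lay below control. Cathepsin B is an endopeptidase that also removes dipeptides from the end of proteins. The copy ctsbb ran from -0.13 over a median of 0.31 to 0.91 in AgNO3, with an estimate of 0.32 (SE 0.11, n = 6, adjusted p = 0.513). Its mean was -0.01 on the AgNO3 arrays with exposed RNA in Cy5 and 0.65 on those with it in Cy3, and the dye orientations did not overlap. In AgNPs ctsbb was at 0.04 (SE 0.11, n = 6). Turning the Cy3 arrays put ctsbb at -0.33 in AgNO3 and -0.20 in AgNPs. The copy ctsba ran from -0.91 over a median of -0.15 to 0.11 in AgNPs, with an estimate of -0.29 (SE 0.10, n = 6, adjusted p = 0.952). Its AgNPs means were -0.55 on Cy5 and -0.03 on Cy3 arrays, and 1 of its 3 probes was at 0.01. In AgNO3 ctsba was at -0.13 (SE 0.10, n = 6), again split by dye, with means of -0.45 in Cy5 and 0.19 in Cy3. Turned Cy3 arrays put ctsba at -0.32 in AgNO3 and -0.26 in AgNPs. On the same arrays, with ratios as deposited, ctsba lay below ctsbb in 6 of 6 AgNO3 and 5 of 6 AgNPs comparisons. Both genes were named for their values on these arrays, so these counts add no separate evidence.

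Cathepsin Z, a carboxypeptidase, ran from -1.55 over a median of -0.22 to 0.04 in AgNPs, with an estimate of -0.47 (SE 0.19, n = 6, adjusted p = 0.9999). Its lowest array, AgNPs replicate 6, rested on 1 of 2 probes, which read -3.47 there while the other read 0.37. Without that replicate ctsz was at -0.25, and with the Cy3 arrays turned at 0.08. In AgNO3 ctsz ran from -0.43 to 0.69, with an estimate of 0.05 (SE 0.19, n = 6).

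Of the remaining cysteine cathepsins, ctsc, the dipeptidyl peptidase that activates granule proteases of immune cells, was below control on 6 of 6 AgNO3 arrays, at -0.14 (SE 0.07, n = 6). It rested on replicate 5 (-0.56): without it the value was -0.06, and with the Cy3 arrays turned 0.09. 1 of its 3 probes lay above control in AgNO3, at 0.14 (SE 0.10, n = 6). With ctss2.1 this made 2 of 36 members below control on every AgNO3 array, against 2.83% of all features. None of the 36 was above control on every AgNO3 array, against 2.25% of all features. The aminopeptidase ctsh was above control on 6 of 6 AgNPs arrays, at 0.15 (SE 0.11, n = 6; -0.02 with turned arrays), and at 0.03 in AgNO3. Its AgNO3 arrays separated by dye, with means of -0.33 in Cy5 and 0.40 in Cy3, and turning the latter gave -0.37. ctsf was at 0.14 in AgNO3 and -0.08 in AgNPs. Counting all 14 cysteine cathepsins, 6 were below control in AgNO3 and 7 in AgNPs.

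The serine and aspartic cathepsins lay slightly below control in both silver forms without passing the test. Cathepsin D, the main aspartic protease of lysosomes, ran from -0.42 over a median of -0.15 to 0.06 in AgNO3 and from -0.37 over -0.10 to 0.07 in AgNPs. The estimates of ctsd were -0.17 (SE 0.08, n = 6, adjusted p = 0.608) and -0.14 (SE 0.08, n = 6, adjusted p = 0.9999). Cathepsin A, which in mammals also protects other lysosomal enzymes, was at -0.10 in AgNO3 and -0.09 in AgNPs. lamp2, a glycoprotein of the lysosomal membrane, was at -0.11 (SE 0.06, n = 6, adjusted p = 0.664) and -0.09 (SE 0.06, n = 6, adjusted p = 0.9999), below control on 5 of 6 arrays of each group. In AgNPs 1 of the 5 probes of lamp2 was at -0.59, and the others lay between -0.04 and 0.14. Among the others, 1 shared the value 0.026559 with a probe of atp6v1ba on AgNPs replicate 3. Whether such values are measurements was not tested. With the Cy3 arrays turned, ctsd was at -0.06 and -0.11, ctsa at 0.01 and 0.04 and lamp2 at -0.05 and 0.06 in AgNO3 and AgNPs.

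In the membrane sector V0, the ring genes atp6v0b and atp6v0cb were the 2 of 36 members above control in AgNPs at an unadjusted p under 0.05, against 2.05% of all features. The ring subunits are proteolipids that carry the protons through the membrane. atp6v0b, measured by 1 probe, was above control on 6 of 6 AgNPs arrays, from 0.02 over a median of 0.17 to 1.00. Its lowest value, 0.024979 on AgNPs replicate 4, was shared exactly with a probe of atp6v1b2. Whether it is a measurement was not tested, so the count of 6 may include an array that was not measured. With ctsh, atp6v0b made 2 of 36 members above control on every AgNPs array, against 2.7% of all features. Its estimate was 0.34 (SE 0.15, n = 6, adjusted p = 0.9999), with means of 0.64 on Cy5 and 0.05 on Cy3 arrays. In AgNO3 atp6v0b ran from -0.62 to 0.68, with an estimate of -0.06 (SE 0.15, n = 6).

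The other ring gene atp6v0cb was above control on 5 of 6 arrays in each group. It ran from -0.33 over a median of 0.30 to 0.56 in AgNPs and from -0.02 over 0.10 to 0.26 in AgNO3. Its estimates were 0.26 (SE 0.09, n = 6, adjusted p = 0.9999) and 0.11 (SE 0.09, n = 6, adjusted p = 0.711), and the AgNPs value was 0.11 with turned arrays. The copy atp6v0ca was at -0.04 in AgNPs and -0.16 in AgNO3. With turned arrays atp6v0ca was at 0.31 in AgNPs (limma, adjusted p = 0.877) and 0.21 in AgNO3, and atp6v0b at 0.29 in AgNPs. The order of the ring genes thus depends on the turning. The a subunits, which form the proton path, were at -0.34 (atp6v0a1a) and -0.10 (atp6v0a1b) in AgNPs and at -0.21 and 0.27 in AgNO3, with atp6v0a1b lacking AgNPs replicate 3. The AgNO3 arrays of atp6v0a1b separated by dye, with means of -0.19 in Cy5 and 0.73 in Cy3. Turned Cy3 arrays reversed it to -0.46 in AgNO3 and 0.27 in AgNPs. Its difference between the silver forms was then -0.73 (limma, adjusted p = 0.847). For atp6v0a1a the turned values were -0.25 in AgNO3 and 0.08 in AgNPs. atp6v0d1, which couples the ring to the rotor, was at -0.02 in AgNO3 and -0.13 in AgNPs.

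In the peripheral sector V1, atp6v1h and atp6v1d had the lowest p in AgNO3. atp6v1h, a regulatory subunit, ran from -0.10 over a median of 0.14 to 0.55, with an estimate of 0.21 (SE 0.06, n = 6, adjusted p = 0.463). Its means were 0.02 on Cy5 and 0.40 on Cy3 arrays, which did not overlap, and turning the latter gave -0.19. atp6v1d, part of the rotor shaft, ran from -0.03 over 0.18 to 0.44, with an estimate of 0.21 (SE 0.08, n = 6, adjusted p = 0.531), and both its probes lay above 0. Turned Cy3 arrays gave 0.10. In AgNPs these genes were at 0.06 and 0.03.

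The gene atp6v1ba, one of the B subunits that bind ATP with the catalytic A subunits, ran from -0.77 over a median of -0.17 to 0.15 in AgNPs. Its estimate there was -0.25 (SE 0.08, n = 6, adjusted p = 0.976), and in AgNO3 it was -0.05 (SE 0.08, n = 6). The AgNPs arrays separated by dye, with means of 0.04 in Cy5 and -0.54 in Cy3. 1 of its 3 probes stayed between -0.04 and 0.06 on every AgNPs array. That probe shared the value 0.026559 with a lamp2 probe on AgNPs replicate 3, so it need not be a measured disagreement. With the Cy3 arrays turned, atp6v1ba was at 0.29. Without AgNPs replicates 3 to 6, the arrays of narrow spread, it was at 0.06. That leaves 2 AgNPs arrays, both of exposed RNA in Cy5, so spread, dye and the number of arrays changed together and cannot be told apart.

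With the ratios as deposited, the other V1 genes showed no unadjusted p under 0.05. The catalytic subunits atp6v1aa and atp6v1ab were at 0.23 and 0.01 in AgNO3 and at 0.08 and 0.13 in AgNPs. The second B subunit atp6v1b2 was at -0.12 in AgNO3 and -0.03 in AgNPs. Its AgNO3 arrays separated by dye, with means of 0.36 in Cy5 and -0.59 in Cy3. Turning the Cy3 arrays put atp6v1b2 at 0.48 in AgNO3 (limma, adjusted p = 0.108) and -0.07 in AgNPs. Its difference between the silver forms was then 0.55 (limma, adjusted p = 0.847), and atp6v1ab stood at 0.28 in AgNO3. The C subunits, which help V1 hold on to V0, were at -0.13 (atp6v1c1a) and -0.02 (atp6v1c1b) in AgNO3 and at 0.03 and 0.13 in AgNPs. The stalk and rotor genes atp6v1e1b, atp6v1g1 and atp6v1f were at 0.08, -0.01 and 0.04 in AgNO3 and at -0.15, -0.12 and -0.02 in AgNPs. The accessory subunits atp6ap1b and atp6ap2 were at 0.11 and 0.08 in AgNO3 and at 0.00 and 0.15 in AgNPs, with adjusted p-values of at least 0.798. The AgNPs arrays of atp6ap1b separated by dye, with means of 0.26 in Cy5 and -0.26 in Cy3. Turned Cy3 arrays put atp6ap1b at 0.26 in AgNPs (limma, adjusted p = 0.868).

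**Figure D4:**
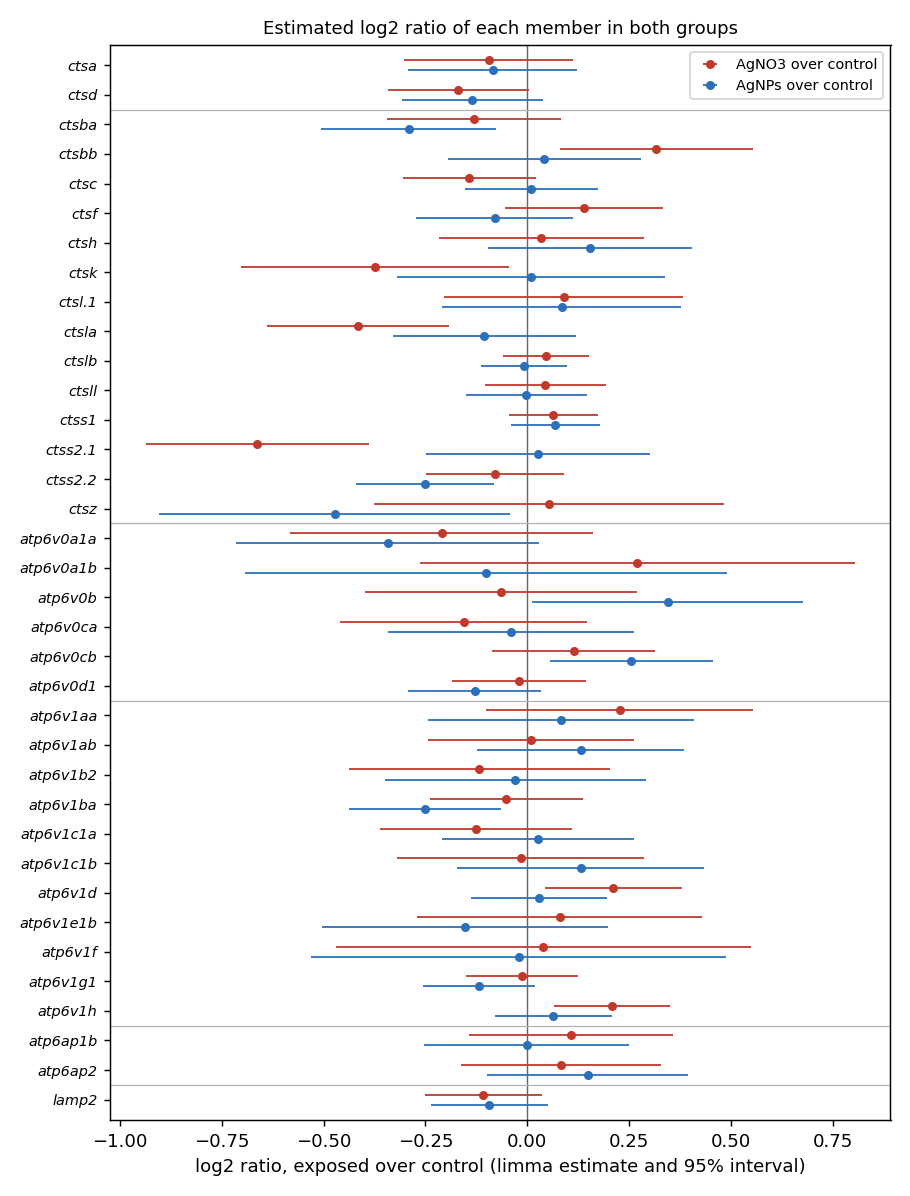
Limma estimates of the log2 ratio of exposed over control with 95% intervals for the 36 genes, for AgNO3 (red) and AgNPs (blue), grouped by role. The AgNO3 interval of ctss2.1, from -0.94 to -0.39, lies farthest from 0, and most intervals of both groups include 0.

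Dye orientation was compared next. In AgNO3, values on the Cy5 and the Cy3 arrays, named by the dye of the exposed RNA, did not overlap for 10 of 36 members, against 19.5% of all features. In AgNPs this held for 5 of 36, against 19.1% of all features. By class these were 7 of 19 pump subunits and 3 of 16 proteases in AgNO3, and 4 of 19 and 1 of 16 in AgNPs. Of the genes with an unadjusted p under 0.05, the separation by dye touched ctsbb and atp6v1h in AgNO3 and atp6v0b and atp6v1ba in AgNPs. ctss2.1 was below control in both orientations in AgNO3, with means of -0.48 and -0.84. In AgNPs it was among the 5 members that separated by dye, with means of 0.22 in Cy5 and -0.17 in Cy3. For 23 members with several probes, all probe means had 1 sign in 11 members in AgNO3 and in 5 in AgNPs. The members differ in their number of probes, and the share over all features was not determined. These counts of probe signs are therefore not read as particular to the members.

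The second question was whether the silver forms differed from each other, for proteases and for pump subunits. No member passed the adjusted threshold for AgNO3 minus AgNPs (0 of 36), where 0% of all features did. At an unadjusted p under 0.05, ctss2.1 was lower in AgNO3, 1 of 36 against 2.57% of all features, and 0 of 36 were higher, against 1.65%. The difference for ctss2.1 was -0.69 (SE 0.18, 95% interval -1.08 to -0.30, adjusted p = 0.858), but -0.01 with the ratios of the Cy3 arrays turned. Arrays of the silver forms did not overlap for 0 of 36 members, against 0.511% of all features. The difference for ctsla was -0.31 (95% interval -0.63 to 0.01) and for ctsz 0.53 (95% interval -0.08 to 1.13), and with turned Cy3 arrays they were -0.19 and -0.05. Among pump genes the difference of lowest p was that of atp6v0b, at -0.41 (95% interval -0.88 to 0.06; -0.17 with turned arrays), and in V1 that of atp6v1d, at 0.18 (95% interval -0.05 to 0.42; 0.10 with turned arrays). For ctsd the difference was -0.03 (95% interval -0.28 to 0.21), for lamp2 -0.01 (95% interval -0.22 to 0.19), and for atp6ap1b 0.11 (95% interval -0.25 to 0.46).

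As classes, neither proteases nor pump subunits stood far from 0. The median estimate of the 16 proteases was -0.02 in AgNO3 and -0.01 in AgNPs, with 8 and 9 genes below control. The median of the 19 pump subunits was 0.01 in AgNO3 and 0.00 in AgNPs, with 9 and 10 genes below control. Over all tested features the medians were -0.01 and 0.00, with 51.8% and 48.2% below control. Array by array, the protease median ran from -0.23 to 0.07 in AgNO3 and from -0.15 to 0.01 in AgNPs. The pump median ran from -0.12 to 0.11 and from -0.08 to 0.06, so the silver forms overlapped for both classes. The median difference AgNO3 minus AgNPs was 0.00 for proteases, 0.11 for pump subunits and -0.01 for all features. The pump value was -0.08 without AgNPs replicates 3 to 6, which leaves 2 AgNPs arrays of 1 dye orientation, and likewise -0.08 with the Cy3 arrays turned.

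**Figure D5:**
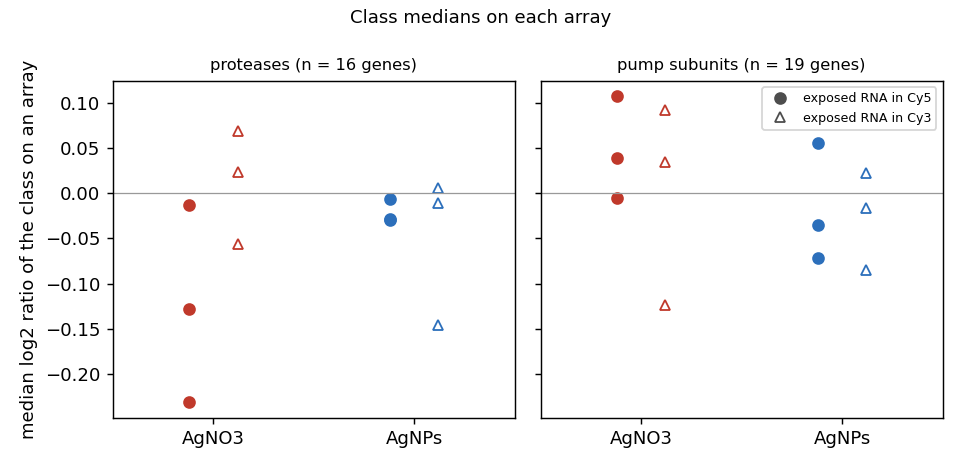
Median log2 ratio of exposed over control of the 16 proteases (left) and the 19 pump subunits (right) on each array, for AgNO3 and AgNPs, with filled circles for exposed RNA in Cy5 and open triangles for Cy3. Protease medians lie between -0.23 and 0.07 and pump medians between -0.12 and 0.11, and the silver forms overlap in both panels.

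Other lysosomal genes were followed as lists. Of 32 tested acid hydrolases outside the rule, 17 were below control in AgNO3 and 21 in AgNPs, with 0 past the adjusted threshold. At an unadjusted p under 0.05 stood cpvl, a carboxypeptidase (0.30), and ppt1, which removes palmitate from proteins (-0.21), in AgNO3, and the tripeptidyl peptidase tpp1 (-0.16) in AgNPs. For cpvl the difference between the silver forms was 0.37. Of 23 lysosomal membrane and cofactor genes, 12 were below control in AgNO3 and 14 in AgNPs. Here scarb2a, the receptor that brings glucocerebrosidase to lysosomes in mammals, was at -0.23 and the amino acid transporter slc36a1 at 0.21 in AgNO3, and the lysosomal lysolipid transporter spns1 was at -0.21 in AgNPs.

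Among 8 partners of the pump outside the rule, 5 were below control in AgNO3 and 7 in AgNPs. rogdi, a relative of a yeast factor that assembles the pump, was at -0.26 in AgNPs, with a difference of 0.38. Of 23 genes for delivery to lysosomes and their transcription, 16 were below control in AgNO3 and 12 in AgNPs. The sorting receptor sort1a (-0.40) and the GTPase gene rragca (-0.26) had an unadjusted p under 0.05 in AgNO3. lamtor4, of the complex that docks such GTPases on lysosomes, was at 0.39 in AgNPs, with a difference of -0.74. Of 6 cathepsin inhibitors, 4 were below control in AgNO3 and 0 in AgNPs, and the difference for serpinb1l1 was -0.89. With turned Cy3 arrays, 20 of 32 hydrolases, 12 of 23 membrane and cofactor genes and 3 of 8 pump partners were below control in AgNO3. In AgNPs these counts were 15, 10 and 2. Turned arrays also put 10 of 23 delivery genes and 2 of 6 inhibitors below control in AgNO3, and 8 and 2 in AgNPs. No gene of these lists passed the adjusted threshold in any comparison (limma, 0 in each list).

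Whole larvae mix cell types, and fewer cells of a type cannot be told apart from less RNA per cell. Markers of macrophages, which are rich in lysosomes and cathepsin S in mammals, lay below control in AgNO3 for 13 of 16 genes, with a median of -0.10, and in AgNPs for 6 of 16, with a median of 0.03. Of all features, 51.8% and 48.2% lay below control. With the Cy3 arrays turned, 9 of 16 markers lay below control in AgNO3, with a median of -0.01, and 5 of 16 in AgNPs, with a median of 0.04. Their mean on an array ran from -0.31 to 0.06 in AgNO3, with 5 of 6 arrays below 0, and from -0.06 to 0.22 in AgNPs. The perforin-like mpeg1.1 was at -0.42 and the invariant chain cd74a at -0.36 in AgNO3, but csf1ra, the macrophage growth factor receptor, was at 0.24 (adjusted p = 0.259, 0.493 and 0.554). In AgNPs cd74a was at 0.28. The differences between the silver forms were -0.64 for cd74a and -0.45 for mpeg1.1. The part of these cells in the values of ctss2.1 was not tested.

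Osteoclast markers, for which ctsk is known, were below control for 4 of 5 genes in AgNO3 (median -0.07) and 1 of 5 in AgNPs (median 0.12), and their part in the ctsk values was not tested. Their mean on an array ran from -0.41 to 0.14 in AgNO3 and from -0.10 to 0.42 in AgNPs. With turned Cy3 arrays, 3 of 5 and 1 of 5 of these markers were below control. Acid-secreting ionocyte markers were below control for 5 of 9 genes in AgNO3 and 4 of 9 in AgNPs, where the carbonic anhydrase ca2 was at -0.17. Turned Cy3 arrays gave 3 of 9 in AgNO3 and 5 of 9 in AgNPs. Markers of lysosome-rich enterocytes, the protein-absorbing cells of the larval gut, were below control for 2 of 5 and 3 of 5 genes, with pllp at 0.27 and fabp6 at 0.25 in AgNO3, but for 5 of 5 in both groups with turned arrays. Neuron markers were below control for 3 of 9 genes in AgNO3 and 6 of 9 in AgNPs, and for 5 of 9 in each with turned arrays. Among the neuron markers, syt1a was at -0.25 in AgNPs and the difference for elavl3 was 0.41.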

How the data were processed

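Larval RNA was measured on 12 2-colour Agilent arrays. The authors deposited log ratios per probe, taken here as log2 on the basis of their range; Trizol extraction and cyanine labelling are recorded per the labels' protocols. For scanner software, background correction, normalization, spot filter and the turning of dye swaps, nothing is given in the sources used here. Arrays held 43603 probes, with 6.97% to 10.9% of values empty and medians of -0.0093 to 0.015. Intensities were not used here, so the number of arrays limits the precision. Some probes of different genes held identical values on an array. They were kept and averaged as deposited, and their origin was not tested. Symbols from the platform annotation were updated through RefSeq by accession (24749 probes), symbol (4278) or synonym (1124), and 35 were kept; 13417 probes had no symbol and none had several. Probes of a gene were averaged, and features with values on at least 2 of 3 arrays per dye orientation and group entered limma 3.58.1 (R 4.3.3), with a mean per group, a dye term and Benjamini-Hochberg adjustment over 25266 features (threshold 0.05). Both groups shared the same estimate of spread per feature. The fit was tested on simulated data. By the sample codes, arrays of the same replicate number in both groups used different control samples, so replicate numbers were not used as pairs. Named were members with an unadjusted p under 0.05 or the lowest p of their role, and up to 3 such genes per other list. Members and lists were chosen with earlier results of these data known. Sequences were not used here.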

Additional observations from a re-analysis of the deposited data

Results flagged for a closer look

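In 10 of 76 sets of 6 values (each member and each class median in each group), 1 array stood far from the other 5 by Dixon's criterion. The criterion is met by about 1 of 20 sets when values are normally distributed. Its share over all tested features was not determined, so 10 of 76 is not read as an excess for these genes. In AgNO3, replicate 2 stood apart for atp6ap2 (0.66, the others from -0.14 to 0.14), for atp6v0d1 (-0.49, the others from -0.01 to 0.16) and for ctslb (0.29, the others from -0.05 to 0.06). AgNO3 replicate 5 stood apart for atp6v1f (0.72) and ctsc (-0.56), and AgNO3 replicate 3 for atp6v1g1 (-0.34). AgNPs replicate 1 stood apart for atp6v1b2 (-0.48), atp6v1c1b (1.095) and ctsf (-0.48). The protease median was lowest on AgNPs replicate 6 (-0.15, the others from -0.03 to 0.01).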

How the results depend on the processing

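Of the values of named members under the alternatives, 353 kept their direction and their side of the threshold, 9 reversed and 1 newly passed. Many alternatives could hardly move such a value, for example leaving out an array of the other silver form. The tally is therefore not a measure of stability. Of the counts and class medians, 303 stayed close to the reported ones and 32 moved. In the alternatives run, 0 members passed the adjusted threshold, except that 1 did in AgNO3 with gap-free probes (ctss2.1). Its gap-free probe did not pass when fitted among all single probes (limma, adjusted p = 0.0914). By the sample codes, AgNO3 and AgNPs arrays of the same replicate number used different control samples. Their residuals correlated at -0.273 to -0.136. The fit, with its group means and dye term, itself pushes such correlations below 0, so they cannot decide on a pairing. With a replicate block the count of members at an unadjusted p under 0.05 for AgNO3 minus AgNPs was 2 against 1. That count was also 2 without the dye term, with the control sample as a random block and with the median over probes, 4 with turned Cy3 arrays or with a common interquartile range, 2 without AgNPs replicates 3 to 6, 3 on Cy5 arrays alone and 4 on Cy3 arrays alone. Leaving out 1 replicate gave 1 to 5 such members for the difference and 3 to 7 in AgNPs. In AgNPs the count was 6, against 11 with scaled arrays, 1 without replicates 3 to 6, 2 on Cy5 arrays and 1 on Cy3 arrays. For these alternatives the share over all features was not determined. Changes in these counts are therefore not read as particular to the members. The AgNPs pump median, 0.00, became 0.0879 with turned arrays, -0.0867 with scaled arrays, 0.0575 without replicates 3 to 6, 0.179 on Cy5 arrays and -0.0628 on Cy3 arrays. The pump difference, 0.11, became -0.0812 with turned arrays, -0.0838 without replicates 3 to 6 and -0.0294 on Cy5 arrays, and ran from -0.00371 to 0.122 with 1 replicate left out. With turned arrays, the difference for ctss2.1 kept its sign but went from -0.69 to -0.0149, and ctsla in AgNO3 from -0.42 to -0.0834. Then 6 named values reversed: atp6v1h (-0.19), ctsbb (-0.33), ctsk (0.0642) and ctss2.1 (0.18) in AgNO3, and atp6v1ba (0.29) and ctsz (0.0795) in AgNPs. atp6v1ba also reversed without AgNPs replicates 3 to 6 (0.0575) and on Cy5 arrays (0.0372), and ctsbb on Cy5 arrays (-0.0134). Leaving out AgNPs replicates 3 to 6 leaves 2 arrays, both of Cy5. The difference was not fitted with each group on its own arrays. Alternatives on gap-free probes, single dye orientations, AgNPs replicates 3 to 6, single probes and current symbols were chosen after seeing the data. The causes were not tested.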
